A study of Bos taurus with 14 samples.

Results

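miR-375 (bta-miR-375) was followed in small extracellular vesicles (sEVs) from the milk of Holstein cows with subclinical mastitis, an udder inflammation without visible signs. It is 1 of the 268 mature miRNA names in the table, listed with 1 precursor, mir-375, among 350 miRNA/precursor pairs. The control group had 7 cows on total mixed rations, and the inulin group had 7 cows on the same rations with 300 g/d of inulin, a plant fructan that gut microbes ferment. Treatment lasted 5 wk and followed an adaptation of 1 wk, and each cow gave 1 milk sample, pooled over the 3 milkings of the last day, from which small RNA was sequenced. miR-375 was selected on its measured level in each cow, its difference between the groups and its correlation with other miRNA. These values are therefore given as descriptions, with standard deviations and standard errors and without p-values.

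A miRNA is a short RNA that pairs with messenger RNA, mainly through the bases near its 5′ end, and lowers their translation or stability. miR-375 is best known from the endocrine cells of the pancreas, where it restrains insulin secretion, and it is also made by other secretory and lining epithelia, including those of gut and mammary gland. Milk sEVs are membrane particles that carry such RNA out of the cell and shield it from degradation. RefSeq (assembly ARS-UCD2.0) places MIR375 between the genes CRYBA2, which encodes a lens crystallin, and CFAP65, which encodes a protein of cilia and flagella. No annotated gene spans it.

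Total counts, summed over all miRNA/precursor pairs, lay between 4165 in control cow 2 and 415020 in control cow 5. With 3 counts taken as the smallest detectable number, the detection limit was between 0.000723% and 0.072% of the counts of a cow. Limits and intervals of a share cover counting error only. Markers of 3 cell types served to check the source of the RNA. Of the epithelial markers miR-200a, miR-200b, miR-200c, miR-141, miR-429 and miR-205, miR-200c and miR-141 had at least 1 count in every cow, miR-141 with 1 count in control cow 2. miR-200b had counts in 8 cows, miR-200a in 7 and miR-429 in 6, and miR-205 was not among the mature names listed. Of the leukocyte markers, miR-155 had counts in 13 cows, miR-223 in 7, miR-142-3p in 6 and miR-142-5p and miR-150 in 2 each. Of the red blood cell markers, miR-486 had 5 counts in 2 cows, and miR-451 and miR-144 were not among the mature names listed.

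Each of the 14 cows had reads of miR-375, and 13 of them reached the limit of 3 counts, while control cow 2 had 1 count. Its lowest levels were in control cows and its highest in inulin cows. In the control group its counts were 134, 1, 52, 157, 824, 33 and 14 in cows 1 to 7, and in the inulin group they were 317, 365, 74, 55, 139, 964 and 122. As a share of all counts of the cow, this was 0.18%, 0.024%, 0.0719%, 0.0886%, 0.199%, 0.109% and 0.0605% in the control cows. In the inulin cows it was 0.167%, 0.207%, 0.212%, 0.371%, 0.123%, 0.363% and 0.162%. Control cows 1 and 5 lay within the range of the inulin group, and the other 5 control cows were below all inulin cows. Inulin cows 2, 3, 4 and 6 were above every control cow, and all 7 inulin cows were above the control median of 0.0886%.

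The mean share of the 7 control cows was 0.105% ± 0.0637 (SD) and that of the 7 inulin cows 0.229% ± 0.0988 (SD). The difference of 0.125 percentage points was larger than the SD of either group. On the log2 scale the inulin cows were 1.30 higher (standard error 0.452), a 2.46-fold difference, against an SD between cows of 1.04 in the control and 0.597 in the inulin group. With 1 cow left out at a time this log2 difference lay between 0.99, without control cow 2, and 1.5, without control cow 5.

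Counting error was a small part of the spread between cows. It accounted for 5.76% of the variance of the share in the control group and for 5.51% in the inulin group. Control cow 2 was the exception, since its share rested on 1 read, and its 95% Wilson interval ran from 0.00424% to 0.136%. That interval included the shares of control cows 3, 4, 6 and 7 and of inulin cow 5. In inulin cow 4, with a total of 14822, the interval was 0.285% to 0.483%, above the intervals of all control cows. Scaled to the lowest total, 4165, the control cows would hold 1 to 8.27 counts of miR-375 and the inulin cows 5.12 to 15.5.

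**Figure D1:**
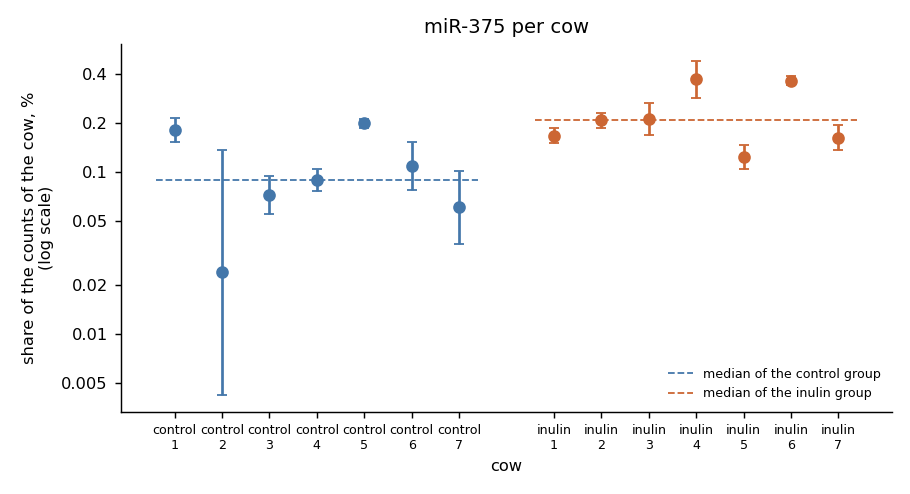
Share of miR-375 in the counts of each cow, in percent on a log axis, with 95% Wilson intervals as bars and the median of each group as a dashed line (0.0886% in the control and 0.207% in the inulin group). Control cow 2, with 1 read, has the widest interval, and 4 of the 7 inulin cows lie above every control cow.

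Because the shares of a cow sum to the whole, the difference was also taken on other scales. The let-7 pairs, which made up between 41.1% and 91.2% of the counts of a cow, are the main part of that whole. In these sums and in the totals a name enters once per precursor. let-7a-5p thus enters with 3 pairs of near-equal counts and let-7f with 2. Per 100 let-7 counts summed over pairs there were 0.153 ± 0.0875 (SD, n = 7) miR-375 reads in control cows and 0.291 ± 0.139 (SD, n = 7) in inulin cows. This was a log2 difference of 1.05 (standard error 0.421). Control cows 1 and 5, with 0.269 and 0.239, were then above the inulin median of 0.227. As a share of the counts outside let-7, miR-375 made up 0.475% ± 0.377 (SD, n = 7) and 1.55% ± 0.985 (SD, n = 7), a log2 difference of 1.93 (standard error 0.727). Relative to the geometric mean of the 31 names found in every cow, the log2 difference was 1.30 (standard error 0.424).

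Normalized by the TMM method of edgeR, which scales cows on the bulk of their miRNA, the level was 1073 ± 732 CPM (SD, n = 7) in control cows and 2362 ± 1127 CPM (SD, n = 7) in inulin cows. CPM puts all cows on one common library total. The groups overlapped more on this scale, where 3 inulin cows were above every control cow. In the deposited counts, without any scaling, the mean was 174 ± 293 (SD, n = 7) for control cows and 291 ± 320 (SD, n = 7) for inulin cows. They differed by 117, which was smaller than the SD of either group. Without inulin cow 6 that difference was 5.10, and without control cow 5 it was 226.

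Levels were also set against single miRNA of the same library. miR-200c belongs to a family that keeps epithelial cells in their epithelial state by repressing the ZEB transcription factors, and miR-141 is a member of that family. Per 100 miR-200c reads there were 20.6 ± 11.9 (SD, n = 7) miR-375 reads in control cows and 57.7 ± 59.7 (SD, n = 7) in inulin cows, with 189.7 in inulin cow 4. All 7 inulin cows were above the control median of 19.2. Per 100 miR-141 reads there were 475 ± 284 (SD, n = 7) and 548 ± 208 (SD, n = 7), and only 1 inulin cow was above the control median of 650.0. The log2 difference relative to miR-141 was 0.52 (standard error 0.541), within the spread between cows. The ratio of medians was 0.802, so that the direction on this scale turned with the summary taken. The miR-141 level itself rested on 1 count in control cow 2.

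**Figure D2:**
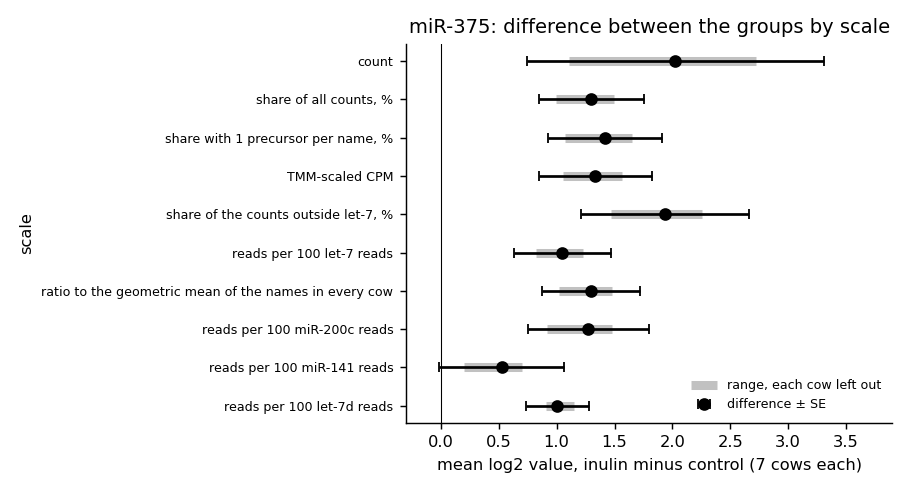
Difference of miR-375 between the groups, as mean log2 value of the inulin cows minus that of the control cows, on 10 scales. Points with bars are the difference ± standard error and grey bars are the range with each cow left out. The difference was above 0 on every scale, lowest relative to miR-141 (0.52) and highest in raw counts (2.02). In raw counts, which carry the depth of each library, its standard error was 1.28, and it was 1.11 without control cow 2.

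Among the 31 mature names with counts in every cow, miR-375 had the largest increase of the mean log2 share, and 1 name, miR-1246, had a larger difference in either direction (-2.06). The next increases were those of miR-7 with 0.85, miR-141 with 0.77, miR-30a-5p with 0.62 and miR-151-5p with 0.56. The median difference of the 31 names was 0.03, with 19 names higher and 12 lower in the inulin group. This place is part of how miR-375 was chosen and was not tested. The SD of miR-375 between cows of a group, 0.845 on the log2 scale, was close to the median of the 31 names, 0.836, and ranged among them from 0.213 to 2.59. miR-7, known from the endocrine pancreas like miR-375, was the most variable of the 31.

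**Figure D3:**
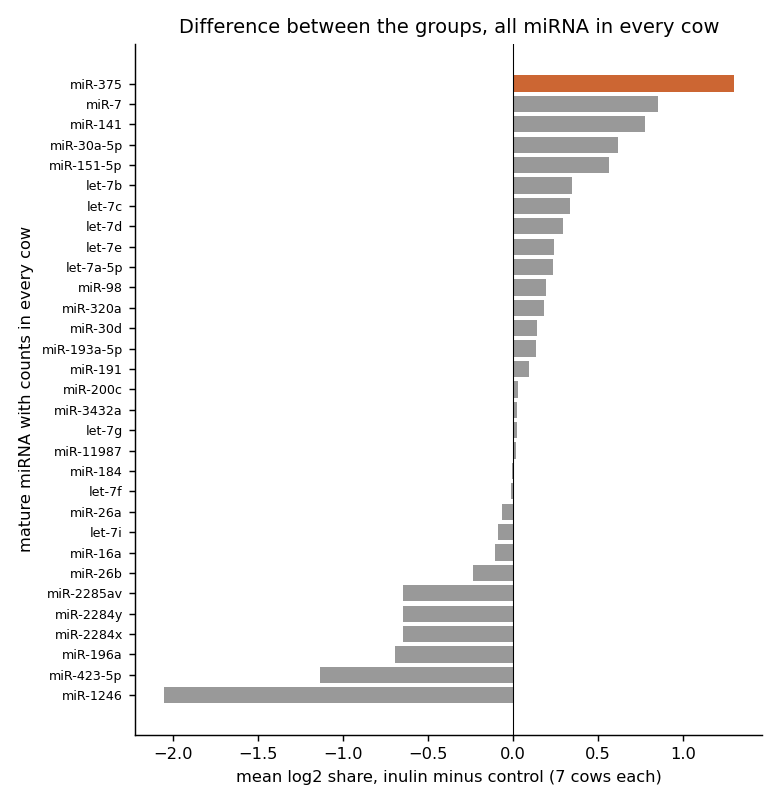
Mean log2 share of the inulin cows minus that of the control cows for each of the 31 mature miRNA names with counts in every cow. miR-375, in orange, has the largest increase (1.30), and miR-1246 the largest decrease (-2.06).

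Across the whole table, the quasi-likelihood test of edgeR covered the 210 pairs whose counts summed to at least 10. By the rule of the study, an unadjusted P under 0.05 with an absolute log2 fold change above 1, it called 19 pairs, 9.05% of those tested, of which 6 (2.86%) were higher and 13 (6.19%) lower in the inulin group. DESeq2 called 9 (4.29%), 3 higher (1.43%) and 6 lower (2.86%). No pair was under 0.05 after Benjamini-Hochberg adjustment in edgeR (0 pairs, against 19 at an unadjusted p under 0.05) or in DESeq2 (0 pairs, against 10). The fitted log2 fold change of miR-375/mir-375 was 1.10 (standard error 0.539), and 10 of the 210 pairs had a higher one. It was not among the 19 pairs called, nor among those of DESeq2. By the same rule it was called in 6 of 9 other settings and in 7 of 14 fits with 1 cow left out. Since the choice of miR-375 used this contrast, nothing is read from these calls. DESeq2 gave a log2 fold change of 0.98.

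By mean share over the 14 cows miR-375 had rank 20 of 268 names, with rank 27 in the control and 18 in the inulin group. miR-375 is 23 nt long and its neighbours in this order are 19 to 24 nt, and shares were compared without a correction for length. Within single cows its rank was 17, 42, 29, 25, 21, 26 and 28 in the control group and 20, 17, 17, 15, 21, 14 and 21 in the inulin group. Only control cow 1 and control cow 5 reached the ranks of the inulin cows. Over all cows its share was 0.167% ± 0.103 (SD, n = 14).

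The names next above it were let-7i with 0.297% ± 0.121, miR-30a-5p with 0.242% ± 0.199 and miR-30d with 0.226% ± 0.0948 (SD, n = 14 each). Those next below it were miR-2904 with 0.162% ± 0.228, let-7d with 0.155% ± 0.077 and let-7e with 0.15% ± 0.0619 (SD, n = 14 each). None of these 6 neighbours differed from miR-375 by more than the SD of the differences within cows. miR-375 was higher than let-7i in 1 of the 14 cows, higher than miR-30a-5p and miR-30d in 4 each, and higher than miR-2904, let-7d and let-7e in 8, 7 and 4. miR-2904 had counts in 11 cows only. Between the control and inulin groups the mean share of let-7i (0.311% and 0.282%), miR-30a-5p (0.237% and 0.246%), miR-30d (0.233% and 0.22%) and let-7d (0.152% and 0.157%) differed by less than the SD of either group. That of miR-2904 was 0.141% and 0.184%, and that of let-7e 0.134% and 0.167%, also with smaller differences than the SDs. The mean log2 share, which weighs low cows more, was 0.62 higher in the inulin group for miR-30a-5p and 0.29 higher for let-7d.

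Likeness to miR-375 was measured over the 14 cows by Pearson's r of the log2 shares after the mean of each group was removed. The points share their library, its depth and the total that every share is taken from, and r is given without a p-value. Over the 30 other names with counts in every cow, r ranged from -0.50 to 0.801 with a median of 0.225, and 20 of the 30 were positive. At least 0.5 was reached by 7 names. The pairs of miR-2284x, miR-2284y and miR-2285av had equal counts in every cow and count as 3 of the 30.

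The name most like miR-375 was let-7d, a let-7 member that like its relatives restrains cell proliferation, with r = 0.801 (Spearman's rho = 0.697). With each cow left out in turn r stayed between 0.665, without control cow 2, and 0.836. It was 0.866 within the 7 control cows and 0.559 within the 7 inulin cows. The let-7d share was 0.144%, 0.048%, 0.107%, 0.0863%, 0.368%, 0.212% and 0.0993% in control cows 1 to 7. In inulin cows 1 to 7 it was 0.154%, 0.162%, 0.1%, 0.196%, 0.132%, 0.193% and 0.164%. Control cow 2 was the lowest and control cow 5 the highest of the control group for both miRNA. In control cow 2 let-7d had 2 counts and miR-375 had 1, both under the limit of 3 counts. These 2 cows also had the lowest and the highest total count, 4165 and 415020.

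Per 100 let-7d reads there were 125, 50.0, 67.5, 103, 53.9, 51.6 and 60.9 miR-375 reads in control cows 1 to 7. In inulin cows 1 to 7 there were 109, 128, 211, 189.7, 93.3, 189 and 99.2. The 50.0 of control cow 2 came from 1 miR-375 read over 2 let-7d reads. The log2 difference on this scale was 1.01 (standard error 0.271), with an SD between cows of 0.508, the smallest spread of the scales used. Let-7d was chosen as denominator after its r was seen.

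The 5 names next to let-7d were miR-30a-5p with r = 0.657, miR-30d with 0.63, miR-191 with 0.569, miR-98 with 0.534 and let-7g with 0.527. miR-30a-5p and miR-30d belong to a family that is abundant in epithelium, and miR-98 and let-7g share the let-7 seed. For these 5 the correlation moved with single cows. Without control cow 2, where miR-375 had 1 count and these names 2 to 18, r fell to 0.474 for miR-30a-5p, 0.278 for miR-30d, 0.484 for miR-191, 0.219 for miR-98 and 0.337 for let-7g. Without that cow only let-7d and miR-141 (0.714) remained at 0.5 or above. miR-141 had r = 0.523 with all cows, and it reached 0.647 within the inulin cows and 0.498 within the control cows. The r of miR-141 also moved with single cows and fell to 0.311 without control cow 5. miR-200c, of the same family as miR-141, had r = 0.161 with all cows.

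**Figure D4:**
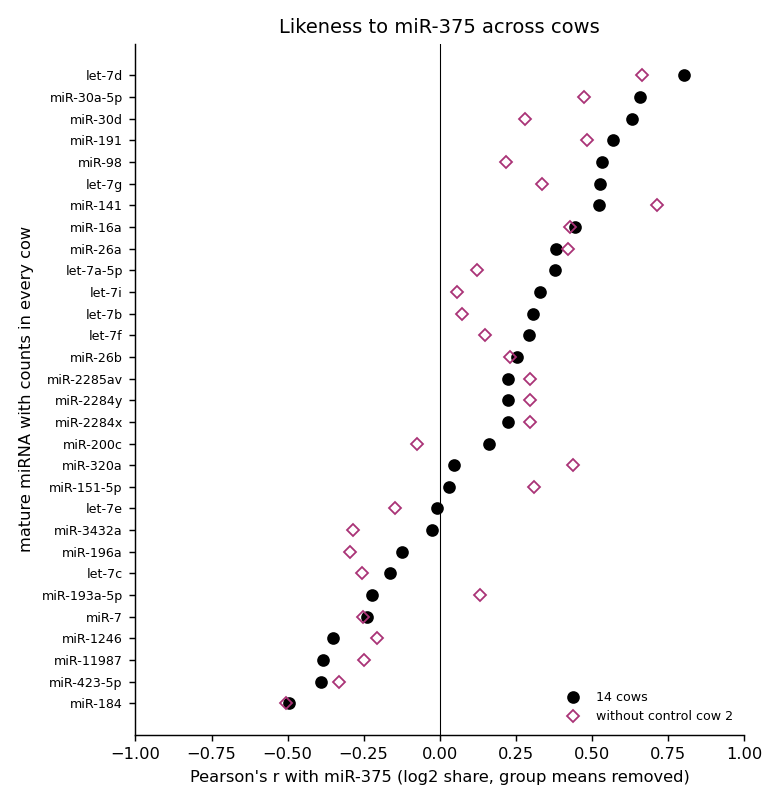
Pearson's r between miR-375 and each of the 30 other mature miRNA names with counts in every cow, from log2 shares with group means removed, with all 14 cows (filled) and without control cow 2 (open diamonds). let-7d is highest with all cows (0.801), and without control cow 2 only let-7d (0.665) and miR-141 (0.714) are at 0.5 or above. Without control cow 5, not drawn here, r of miR-141 was 0.311.

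The 4 names least like miR-375 were miR-184 with r = -0.50, miR-423-5p with -0.39, miR-11987 with -0.38 and miR-1246 with -0.35. With 1 cow left out at a time r was weakest at -0.34 for miR-184 and -0.14 for miR-11987, both without control cow 5. It was weakest at -0.17 for miR-423-5p, also without control cow 5, and at -0.21 for miR-1246, without control cow 2. With shares taken of the counts outside let-7, r was -0.10 for miR-184, -0.28 for miR-423-5p and -0.71 for miR-1246, and for miR-11987 it turned to 0.0826. miR-184 is an abundant miRNA of cornea and lens and is also found in pancreatic islets. Its share was 0.0175%, 0.312%, 0.167%, 0.0728%, 0.00626%, 0.202% and 2.13% in control cows 1 to 7. In inulin cows 1 to 7 it was 0.224%, 0.0119%, 0.0486%, 0.654%, 0.0912%, 0.0524% and 0.426%. In the control cows r with miR-184 was -0.73, where the 2 cows highest in miR-375, cows 1 and 5, were the lowest in miR-184, and in the inulin cows it was 0.064. miR-423-5p and miR-1246 made up 5.88% and 9.19% of the counts on average, and their r with miR-375 was negative in both groups.

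The correlations of the groups differed in sign for 18 of the 30 names, which was not tested. The median r was 0.375 in the control cows and 0.0241 in the inulin cows. In the control group 8 names reached 0.5, in the inulin group 5, and let-7d and miR-30a-5p (0.557 in the inulin cows) were the 2 that did so in both. For miR-191 r was 0.799 in the control and -0.48 in the inulin cows, and for miR-30d it was 0.728 and 0.0639. Each of these rests on 7 cows. With shares taken of the counts outside let-7 the number of names at 0.5 or above was 19 in place of 7, and relative to the geometric mean it was 4.

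**Figure D5:**
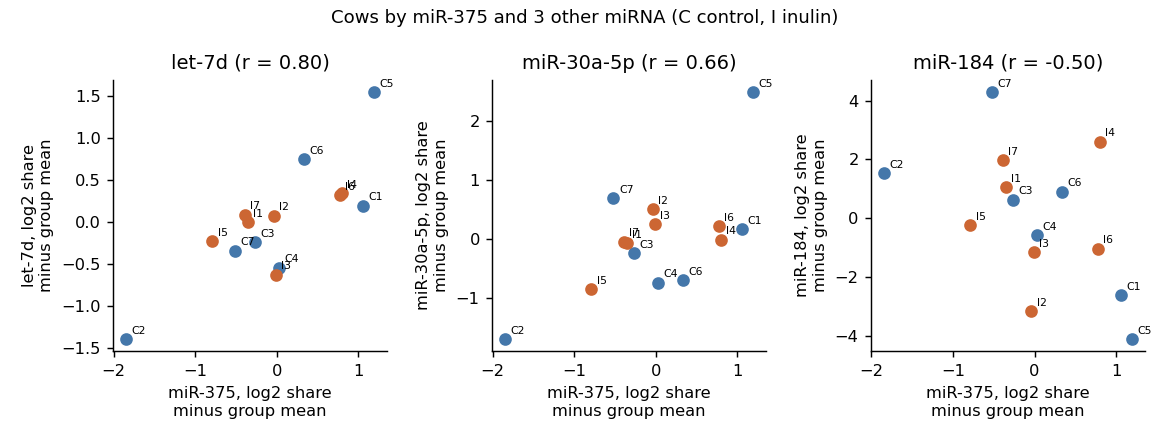
Log2 share minus the group mean in each cow, miR-375 on the horizontal axis and let-7d, miR-30a-5p or miR-184 on the vertical axis, with control cows in blue and inulin cows in orange. Control cow 2 (lowest in miR-375) and control cow 5 lie at opposite ends for let-7d and miR-30a-5p (r = 0.801 and 0.657), and for miR-184 (r = -0.50) the control cows fall from left to right.

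The level of miR-375 in relation to depth was compared as well. The choice of miR-375 used its level in each cow, though not depth, and this relation was picked after the data were seen. The relation is therefore given as a description, without p-values. Over all 14 cows the log2 share of miR-375 had Pearson's r = 0.521 with the log10 total count and Spearman's rho = 0.341. With control cows 2 and 5 removed, the 2 farthest from the median depth, r came to 0.104. For the control cows alone r was 0.833 (n = 7) and rho 0.821, and r was 0.25 without the same 2 cows. For the inulin cows alone r was -0.27 (n = 7) and rho -0.18. Without the 2 inulin cows farthest from their median depth, cows 3 and 4, r was 0.733. The relation in the control cows thus rested on the shallowest and the deepest library, and nothing is read from it.

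Lists of miRNA known from epithelium, milk, leukocytes, red blood cells and pancreatic islets were read beside miR-375 in the same edgeR test. Of the 7 epithelial names tested, 0 were called in either direction, against 9.05% of all pairs. Their median log2 fold change was -0.19, against -0.40 for all pairs tested. miR-200c (0.04, standard error 0.442), miR-141 (-0.19, standard error 0.764), miR-200b (-1.19, standard error 1.15) and miR-200a (0.04, standard error 1.21) had the most counts among them. For miR-141 the sign of this fitted value is opposite to that of the difference in mean log2 share, 0.77. The summed epithelial share ranged from 0.36% to 1.36% in the control and from 0.256% to 0.886% in the inulin cows, and its r with miR-375 was 0.24, or 0.0533 without control cow 2.

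Of the 12 milk-abundant names tested, 0 were called, against 9.05% of all pairs. Their median log2 fold change was -0.02, against -0.40 for all pairs tested. let-7b (0.39, standard error 0.21) and let-7a-5p (0.29, standard error 0.226) had the most counts, followed by let-7f (0.01, standard error 0.312) and miR-26a (-0.23, standard error 0.47). Of the 5 islet names tested, miR-7 was called as higher (log2 fold change 1.88, standard error 0.882, adjusted p = 0.522 from edgeR) and none was called as lower. Of all pairs 2.86% were called as higher, and 1 of 5 names is too few to read against that share. The median of the 5 was -0.16, against -0.40 for all pairs. miR-184 (-0.71, standard error 0.891) and miR-29a (0.18, standard error 1.05), a miRNA that represses collagen and other matrix genes, did not pass. With group means removed, r between miR-375 and miR-7 was -0.24.

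Of the 7 leukocyte names tested, miR-142-5p, a miRNA of blood-forming cells, was called as lower, where 6.19% of all pairs were called as lower. A single name of 7 is too few to read against that share. miR-142-5p had 32 counts in 2 control cows and no inulin cow had any (0 cows; adjusted p = 0.274 from edgeR). miR-142-3p, of the same precursor, had counts in 3 control and 3 inulin cows and was not called (-1.04, standard error 1.16). The median log2 fold change of the 7 was -1.18, against -0.40 for all pairs. miR-21-5p (-1.18, standard error 0.879), miR-155 (0.17, standard error 0.782), which is induced in activated immune cells, and miR-223 (-1.49, standard error 1.22), a miRNA of neutrophils, did not pass. The summed leukocyte share ranged from 0.013% to 0.184% in the control and from 0.0226% to 0.0779% in the inulin cows, and its part in the difference of miR-375 was not tested. The 2 red blood cell names tested, miR-16a (-0.21, standard error 0.453) and miR-92a (-1.26, standard error 0.972), were not called and are made by many cell types. Fewer vesicles from one kind of cell and less of the miRNA in each vesicle cannot be told apart in these libraries.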

How the data were processed

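The authors deposited 1 table of read counts per miRNA/precursor pair, without normalization, made with miRDeep2 from trimmed and filtered reads. The submitters' processing notes name the build ARS-UCD1.2. Its rpm columns, which the authors scaled from these counts, were reproduced to within 0.005. The deposited table also lists a total and a length in nt, another unit of no stated source. Its 0 unmapped columns left no value without a cow. Depth ranged from 4165 to 415020 counts, and shares have 95% Wilson intervals.

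The members and lists were chosen with earlier results of these data known. edgeR 4.0.16 (R 4.3.3, TMM, pairs with at least 10 counts) was the test across pairs. DESeq2 1.42.0, the tool of the study, and limma-voom (limma 3.58.1) were alternatives, with those named in the closing section. Log2 CPM had a prior count of 2. A name with several precursors was represented by the pair with the most counts. The text names the 6 names most and the 4 least like miR-375, 3 neighbours on each side in the order of share, and in each list those with the most counts. Other names are given where a result turned on them. Depth relations are given as Pearson's r and Spearman's rho. The fits and the correlation were tested on simulated data as a check of the code. The changes simulated for the fits were larger than the difference of miR-375. They do not show how often a difference of that size would be found. The mature sequence was not analysed here. Nothing in the labels says that numbers pair cows. Other steps used SciPy 1.17.1, pandas 2.3.3 and NumPy 2.4.6 under Python 3.11.15, and matplotlib 3.10.9 for the plots.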

Additional observations from a re-analysis of the deposited data

Results flagged for a closer look

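An outlying cow was sought with Dixon's ratio in 42 groups of 7 values. Chance would pick about 2.1 if the values were normal and the groups independent. The groups hold counts, shares and ratios of the same cows, so nothing is read from an excess over that number. The ratio picked 8 values. Of these, 4 were the highest values of control cow 5, which had a total count of 415020 (next cow 177212), 824 counts of miR-375 (next 157), a miR-30a-5p share of 0.869% (next 0.25%) and a miR-191 share of 1.11% (next 0.378%). The miR-375 share of this cow, 0.199%, was not picked. Inulin cow 6 had 964 counts of miR-375 (next 365), and its share of 0.363% was not picked either. Inulin cow 4 had 189.7 miR-375 reads per 100 miR-200c reads (next 62.5). The miR-423-5p share of inulin cow 5 was 9.06% (next 3.55%), and the miR-184 share of control cow 7 was 2.13% (next 0.312%).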

How the results depend on the processing

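The difference of miR-375 between the groups was above 0 in all alternatives run, apart from the ratio of the group medians relative to miR-141, 0.802. The edgeR log2 fold change of 1.10 (standard error 0.539) lay between 0.92 with limma-voom and 1.61 with TMMwsp. With each cow left out it was from 0.89 to 1.43. The difference in log2 CPM was 1.31 (standard error 0.476), and some alternatives shifted it by more than this standard error. These shifts were those to 0.82 with counts thinned to the lowest total, 0.52 relative to miR-141 and 1.93 outside let-7. With each cow left out the difference was from 0.94 to 1.53. The share difference of 0.125 percentage points was 0.22 with 1 precursor per mature name and 1.07 outside let-7, where the totals are smaller, and from 0.101 to 0.142 with each cow left out. The difference in mean count ranged from 5.10 to 226 with each cow left out.

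The number of pairs called, 19, was 9 with DESeq2, 75 without a filter and 3 with filterByExpr, which tested 62 pairs, and from 14 to 22 with each cow left out. With the number of the cow as a replicate block it was 7, 1 of them under 0.05 after adjustment (edgeR), and the log2 fold change of miR-375 was 1.27 (standard error 0.731). The deviations of same-numbered cows correlated between -0.33 and 0.256. Without the same values for differently numbered cows this range cannot decide whether numbers pair cows, and the labels do not say so. Of the list names, 2 were called, against 1 with DESeq2, with its size factors or with 1 precursor per mature name, 0 with filterByExpr or the replicate block, and 1 to 5 with each cow left out, the highest without control cow 5.

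The 7 names at r of 0.5 or above became 3 with Spearman's rho, 4 relative to the geometric mean, 19 outside let-7, and 2 to 10 with each cow left out. Without control cow 2 there were 2, and without control cow 5 there were 3. The depth relation, chosen after seeing the data like the ratios to single miRNA and to let-7, had r = 0.833 in the control cows and -0.27 in the inulin cows. Where no cause is named for a shift, the cause was not tested. Depth limits control cow 2, with 1 read of miR-375.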
